A study of Mus musculus with 6 samples.

Results

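AP-1 is a family of transcription factor dimers built from Fos and Jun proteins, and most of its genes are immediate early genes, which cells switch on within minutes of a signal without first making new protein. Serum, wounding, ultraviolet light and the dissociation of a tissue into single cells all raise them, through MAP kinases that act on factors such as SRF, ELK1 and CREB. In the epidermis AP-1 is known for its part in keratinocyte growth, differentiation and stress responses.

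The 10 genes described here were chosen by name from the 54532 genes of the count table. They are the Fos family (Fos, Fosb, Fosl1 and Fosl2), the Jun family (Jun, Junb and Jund) and the early factors Atf3, Egr1 and Ier2. The choice rests on what the genes are known to do and not on a threshold in these libraries, but was made with earlier results of these data known. All 10 were among the 13157 genes that passed the filter on low counts and were tested.

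The samples were 6 Smart-seq2 libraries, each made from 500 sorted DAPI-negative events of C57BL/6 mice aged 4 weeks, of both sexes. By the methods the dissociated tissue was the epidermis of back skin, while the labels of the bulk skin group read total skin. For the NCAM-enriched group (n = 3) cells were selected with magnetic beads against polysialylated NCAM and then sorted as NCAM-positive. This surface trait was used to collect Merkel cells, the touch-sensing cells of the epidermis. The bulk skin group (n = 3) had no selection for NCAM, so it can hold any live cell of the preparation. Both groups went through the same enzymatic and mechanical dissociation. The methods describe the bead column and the NCAM antibody stain for the NCAM-enriched cells only. Cell identity and this added handling therefore cannot be told apart between the groups. No undissociated skin is among the samples, so the level of these genes in intact skin and what dissociation added to it cannot be told apart. The sources do not say whether replicates were separate animals, and p-values measure the spread between libraries alone.

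The libraries held 1343190 to 4481830 counts. All 10 Merkel cell markers were higher in the NCAM-enriched libraries without overlap, and 5 were called higher by edgeR, while 7 of 10 suprabasal keratinocyte markers were called higher too. All 6 T and NK cell markers and 5 of 6 Langerhans and myeloid markers were called lower, and 0 of 7 basal keratinocyte markers were called by edgeR (0 at an unadjusted p under 0.05, 0 by DESeq2 and 0 by limma-voom). NCAM-enriched library 2 stood apart in fibroblast markers, with a summed level of 33003 CPM (CPM are counts scaled to a common library size) against 363 and 41.7 CPM in NCAM-enriched libraries 1 and 3 and 10356 to 18198 CPM in bulk skin. All 4 red blood cell genes were called lower, with a summed level of 1.42 to 22.8 CPM in the NCAM-enriched libraries and 736 to 1170.1 CPM in bulk skin. Mitochondrially encoded genes took 0.313 to 1.97% of counts in the NCAM-enriched libraries and 0.139 to 0.263% in bulk skin. Each library pools many cells, so fewer cells of a type and less RNA per cell cannot be told apart.

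All 10 genes had counts in every library, and by count Fos was among the first 25 genes of each. The summed counts of the 10 genes made up 0.914%, 0.881% and 1.53% of NCAM-enriched libraries 1, 2 and 3 and 0.722%, 1.07% and 0.95% of bulk skin libraries 1, 2 and 3. The group means were 1.11 ± 0.366% (SD, n = 3) and 0.914 ± 0.177%. The groups overlapped, and the means did not differ beyond the spread of the libraries (exact two-sided permutation p = 0.6, where 3 against 3 cannot go below 0.1). By the quasi-likelihood test of edgeR with the Benjamini-Hochberg adjustment, 0 of the 10 genes had an adjusted p of 0.05 or less and were called, against 2.59% of all genes tested. Of the 10, 2 had an unadjusted p under 0.05, namely Jun and Jund, against 18.9% of all genes tested, so the count is close to the background. DESeq2 called 1 of the 10 higher, against 5.06% of all genes, and limma-voom called 1 higher, against 2.67%. Both called Jun. The plot of the 10 genes by library shows these levels together.

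**Figure D1:**
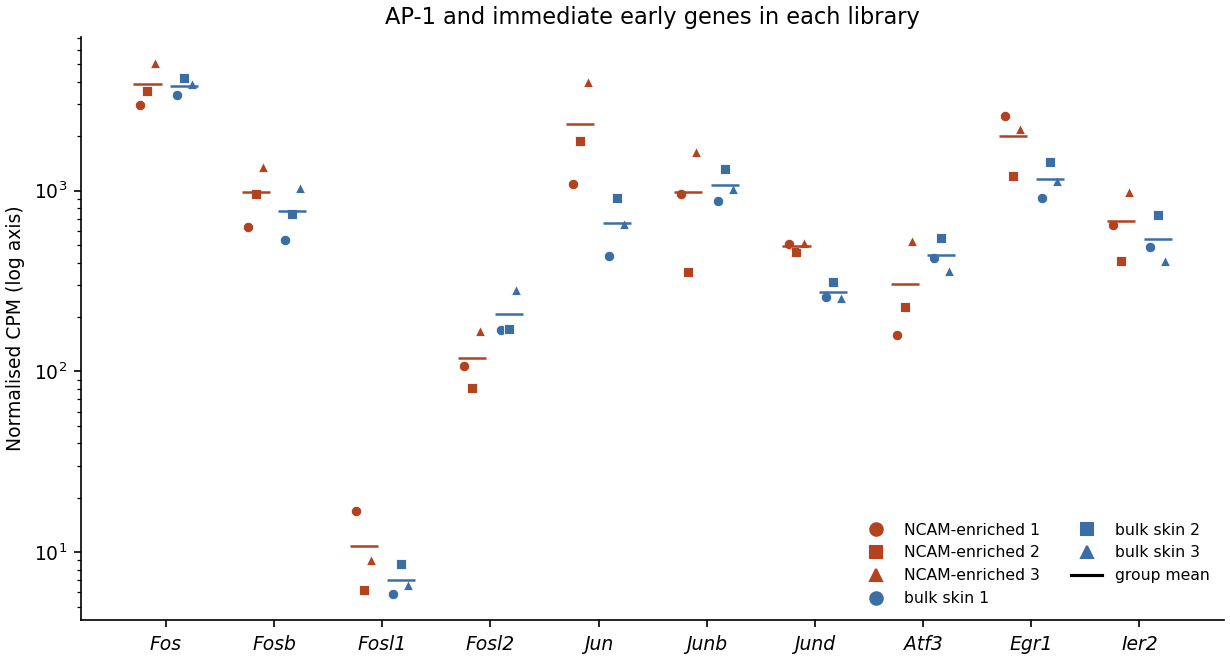
Level of each of the 10 genes in each library, in normalised CPM on a log axis. Red marks are the NCAM-enriched libraries and blue marks the bulk skin libraries, with circle, square and triangle for libraries 1, 2 and 3, and the bar is the group mean. The groups do not overlap for Jun, Jund and Fosl2. Fos lies between 2978 and 5062 CPM in all 6 libraries.

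Fos, which forms AP-1 dimers with Jun proteins, did not differ between the groups beyond the spread of the libraries. It lies on chromosome 12 (85473890 to 85477273, plus strand, GRCm38). Its level was 2978, 3559 and 5062 CPM in NCAM-enriched libraries 1, 2 and 3 and 3369, 4170.2 and 3889.6 CPM in bulk skin libraries 1, 2 and 3. All bulk skin libraries lay inside the range of the NCAM-enriched ones. Between the groups its log2 fold change was 0.02 ± 0.46 (SE; edgeR adjusted p = 0.986). Its 95% interval, before adjustment for the number of genes tested, ran from a fold of 0.491 to 2.1. A change within that range is not excluded, and the interval is no limit of detection for the adjusted test. Ranked by count among all genes, Fos held places 25, 13 and 14 in the NCAM-enriched libraries and 14, 11 and 8 in bulk skin.

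Fosb, a close relative of Fos that is induced by the same signals, also had overlapping groups. Its level was 631, 963 and 1355 CPM in NCAM-enriched libraries 1, 2 and 3 and 531, 747 and 1029 CPM in bulk skin libraries 1, 2 and 3. The highest NCAM-enriched library was above all bulk skin libraries, and the lowest lay between bulk skin libraries 1 and 2. This gave a log2 fold change of 0.35 ± 0.44 (SE; edgeR adjusted p = 0.734).

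Fosl2 (Fra-2), a Fos relative that lacks the strong activation domain of Fos, was the only 1 of the 10 genes with every NCAM-enriched library below every bulk skin library, a pattern shown by 19.3% of all genes tested. It had 107, 81.1 and 167 CPM in NCAM-enriched libraries 1, 2 and 3 and 169.5, 172 and 282 CPM in bulk skin libraries 1, 2 and 3. NCAM-enriched library 3 and bulk skin library 1 were almost level. The log2 fold change was -0.81 ± 0.41 (SE; edgeR adjusted p = 0.336) and was -1.20 without NCAM-enriched library 3.

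Fosl1 (Fra-1), which is often raised in wounded and transformed epithelia, was the least abundant of the 10. It had 17, 6.18 and 9.08 CPM in NCAM-enriched libraries 1, 2 and 3, from 32, 8 and 32 counts. In bulk skin libraries 1, 2 and 3 it had 5.90, 8.65 and 6.58 CPM, from 19, 40 and 24 counts. The groups overlapped (log2 fold change 0.61 ± 0.97 SE; edgeR adjusted p = 0.802), and the 95% interval spanned folds of 0.33 to 7.05. Its exons share 57.2% of their bases with Ccdc85b on the other strand, and reads of the 2 genes cannot be told apart there because the library method keeps no strand.

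Jun was the gene of the 10 that differed most between the groups. It encodes the main partner of Fos and can also pair with itself, and it lies on chromosome 4 (95049034 to 95052222, minus strand, GRCm38). Its level was 1090.4, 1886 and 4001 CPM in NCAM-enriched libraries 1, 2 and 3 and 433, 913 and 653 CPM in bulk skin libraries 1, 2 and 3. Every NCAM-enriched library was above every bulk skin library, a pattern shared by Jund among the 10 genes and by 11.1% of all genes tested. The lowest NCAM-enriched library was close to the highest bulk skin one.

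The fold between the groups for Jun was 3.49, with a 95% interval of 1.41 to 8.64 (log2 fold change 1.80 ± 0.58 SE; edgeR unadjusted p = 0.0124, adjusted p = 0.127). It was not called in the main test. It was called in 3 of 14 alternatives, with an adjusted p of 0.0173 in DESeq2, 0.0400 in limma-voom and 0.00669 in edgeR on all genes with at least 1 count. NCAM-enriched library 3 carried much of the size, since without it the log2 fold change was 1.08 in edgeR (adjusted p = 0.169) and 1.17 in DESeq2 (adjusted p = 0.0803). DESeq2 also gave no call without bulk skin library 1 (adjusted p = 0.145) or 3 (adjusted p = 0.0982), and was kept without NCAM-enriched library 1 (adjusted p = 0.00245), NCAM-enriched library 2 (adjusted p = 0.00488) or bulk skin library 2 (adjusted p = 0.0281). Leaving out NCAM-enriched library 2, which stood apart in fibroblast markers, gave a log2 fold change of 1.92 in edgeR (adjusted p = 0.0755).

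Levels of other cell types moved between the same groups as Jun. The summed suprabasal keratinocyte markers had 37217, 14318 and 19261 CPM in NCAM-enriched libraries 1, 2 and 3 and 1567 to 1753 CPM in bulk skin. The summed Merkel cell markers had 1569, 1674 and 482 CPM against 133 to 186 CPM, and the summed Langerhans and myeloid markers 177, 52.5 and 323 CPM against 10241 to 17716 CPM. The summed basal keratinocyte markers had 9898, 7580.3 and 31095 CPM against 12341 to 16552 CPM. NCAM-enriched library 3, where Jun, Fos, Fosb, Junb, Jund and Ier2 were highest, had the highest basal sum of the 6 libraries, the lowest Merkel cell sum of its group and the middle suprabasal sum. The part of these cell types in the level of these genes was not tested.

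Junb, which can hold Jun back on many of its targets, had overlapping groups. Its level was 961, 355 and 1639 CPM in NCAM-enriched libraries 1, 2 and 3 and 879.9, 1313 and 1023 CPM in bulk skin libraries 1, 2 and 3. The NCAM-enriched libraries enclosed the bulk skin range on both sides and differed 4.61-fold among themselves, the widest spread of the 10 genes in that group, against 1.49-fold in bulk skin. The groups differed by a log2 fold change of -0.12 ± 0.55 (SE; edgeR adjusted p = 0.938). It was 0.27 without NCAM-enriched library 2, where Junb was lowest, and -0.76 without NCAM-enriched library 3, where it was highest.

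Jund, the Jun family gene known for steady rather than induced expression, was higher in every NCAM-enriched library than in any bulk skin library. Its level was 506, 455 and 516 CPM in NCAM-enriched libraries 1, 2 and 3 and 258, 314 and 256 CPM in bulk skin libraries 1, 2 and 3. It had the narrowest spread of the 10 genes within both groups, at 1.13-fold and 1.23-fold. The log2 fold change was 0.84 ± 0.32 (SE; edgeR unadjusted p = 0.0299, adjusted p = 0.203), and its adjusted p was 0.0674 in DESeq2 and 0.0967 in limma-voom. Leaving out single libraries moved the log2 fold change only from 0.73 to 0.89. Exons of Gm11175 on the other strand cover 52.6% of the exonic bases of Jund, so its level and its difference between the groups are uncertain. The plot of log2 fold changes with their intervals sets the 10 genes side by side.

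**Figure D2:**
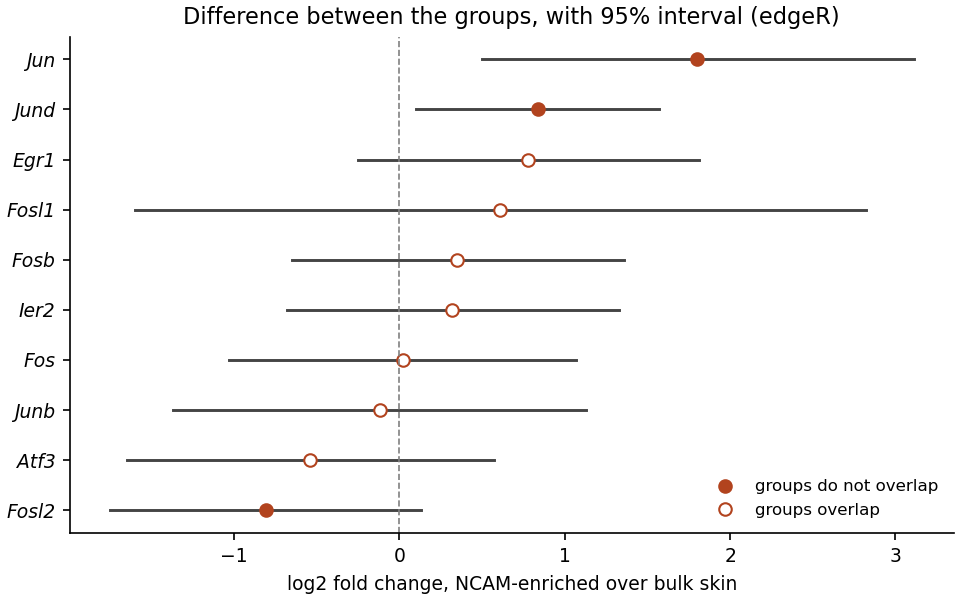
Log2 fold change of each of the 10 genes, NCAM-enriched over bulk skin, from edgeR, with its 95% interval. Filled marks are genes whose groups do not overlap and open marks genes whose groups overlap. The intervals of Jun (0.50 to 3.11) and Jund (0.10 to 1.57) lie above 0 before adjustment for the number of genes tested, and the other 8 include 0.

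The start regions of Fos, Jun and Junb are shown because these are the abundant AP-1 genes whose levels contrast most, with Fos overlapping between the groups, Jun higher without overlap and Junb varying within one group. Each run is the 150 bases before the RefSeq start site, 5′ to 3′, on GRCm38.p6, for Fos chr12:85473740-85473889 on the plus strand, for Jun chr4:95052223-95052372 on the minus strand and for Junb chr8:84978749-84978898 on the minus strand. Capitals mark matches to the letters TGACG (the CRE half-site, bound by the CREB and ATF factors), TGACNTCA (a CRE type octamer, which Jun and ATF2 pairs bind in the Jun promoter) and TATAAA (the letters of the TATA box).
Fos: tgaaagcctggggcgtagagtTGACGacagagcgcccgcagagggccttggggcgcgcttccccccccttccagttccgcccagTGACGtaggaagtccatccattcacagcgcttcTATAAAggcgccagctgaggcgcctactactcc
Jun: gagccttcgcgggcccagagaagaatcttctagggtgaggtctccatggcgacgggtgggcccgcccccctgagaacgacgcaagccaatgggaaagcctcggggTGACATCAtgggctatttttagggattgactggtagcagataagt
Junb: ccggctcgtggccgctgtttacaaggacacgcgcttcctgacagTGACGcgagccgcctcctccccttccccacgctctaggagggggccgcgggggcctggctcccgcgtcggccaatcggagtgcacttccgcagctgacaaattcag

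RefSeq start regions, running from 250 bases before to 50 after the start, were found for 7 of the 10 genes, namely Fos, Fosb, Fosl2, Jun, Junb, Jund and Atf3. With both strands searched, TGACG was present in 4 of the 7 (Fos, Fosb, Junb and Atf3), against 20.8% of all 32851 start regions. Fos held it at -129 to -125 and at -66 to -62, with TATAAA at -33 to -28, counted from the start site. Jun held TGACNTCA at -45 to -38, a motif found in 8.83% of all start regions, and no other of the 7 did.

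The match to the EGR site GCGNGGGCG, the motif of the Egr1 protein, was found in Fosb at -50 to -42 and in Fosl2 at -79 to -71, against 5.55% of all start regions. TATAAA was found in 2 of the 7, against 13.6%. In Junb it lies at 0 to 5, at and after the RefSeq start and outside the printed run. GENCODE M21 puts the 5′ end of Junb downstream of that start, at 84978718 on chromosome 8. The match therefore lies before the GENCODE start, and which start these cells use was not tested. The AP-1 site TGANTCA (7.81% of all) and the CArG box bound by SRF (1.63% of all) had no match in these 7 windows. TGACG and TGACNTCA were added to the search after the sequences had been seen, and a full palindromic CRE would count under both. The matches describe these letters and were not set against the levels.

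Atf3, a stress-induced factor that pairs with Jun proteins and often represses, had overlapping groups. Its level was 158, 227 and 528 CPM in NCAM-enriched libraries 1, 2 and 3 and 425, 547 and 357 CPM in bulk skin libraries 1, 2 and 3. NCAM-enriched libraries 1 and 2 were below all bulk skin libraries, and library 3 was near the highest of them. The log2 fold change was -0.54 ± 0.49 (SE; edgeR adjusted p = 0.619), and -1.27 without NCAM-enriched library 3 (adjusted p = 0.0744).

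Egr1, a zinc finger factor of the immediate early response and no part of AP-1, had overlapping groups. It had 2589.9, 1205 and 2196 CPM in NCAM-enriched libraries 1, 2 and 3 and 912, 1448 and 1125 CPM in bulk skin libraries 1, 2 and 3. NCAM-enriched libraries 1 and 3 were above all bulk skin libraries, and library 2 fell among them. This gave a log2 fold change of 0.78 ± 0.45 (SE; edgeR adjusted p = 0.408).

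Ier2, a small immediate early protein with no DNA-binding domain of the AP-1 kind, had 646, 409 and 985 CPM in NCAM-enriched libraries 1, 2 and 3 and 489, 733 and 407 CPM in bulk skin libraries 1, 2 and 3. The groups overlapped across most of their range, and the log2 fold change was 0.32 ± 0.44 (SE; edgeR adjusted p = 0.762). NCAM-enriched library 3 held the highest value of the 6 libraries for Fos, Fosb, Jun, Junb, Jund and Ier2, and it was the deepest of its group.

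As a group, the 10 genes differed less between the groups than the median gene. The median absolute log2 fold change was 0.57 over the 10 genes and 0.83 over all 13157 tested, and 9 of the 10 (90.0%) had an absolute log2 fold change under 1 against 58.1% of all genes tested. Abundance is part of that comparison, since 8 of the 10 averaged at least 200 CPM. Of these 8, 7 (87.5%) were under 1, against 59.8% of the 861 genes tested that averaged at least 200 CPM. The median spread within the NCAM-enriched group, as the log2 range of CPM over its 3 libraries, was 1.18 for the 8 abundant genes and 1.10 for the 861, and in bulk skin it was 0.64 for both. These are descriptions of a chosen list and were not tested.

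Compared per exonic kilobase, which allows levels of different genes to be set against each other, Fos was the highest of the 10 in both groups. In the NCAM-enriched group the mean level was 1644 CPM per kilobase for Fos and 729 for Jun, followed by Ier2 (447), Egr1 (445), Junb (428), Jund (295), Fosb (157), Atf3 (141), Fosl2 (12.2) and Fosl1 (5.29). Neighbours in this order had separate ranges over the libraries only for Fos and Jun, Jund and Fosb, Atf3 and Fosl2, and Fosl2 and Fosl1. In bulk skin the order was Fos (1619.7), Junb (466), Ier2 (357), Egr1 (259), Jun (209), Atf3 (206), Jund (165), Fosb (123), Fosl2 (21.5) and Fosl1 (3.46). There the separate neighbours were Fos and Junb, Fosb and Fosl2, and Fosl2 and Fosl1. Second place holds for the means alone, since Jun in the NCAM-enriched group and Junb in bulk skin overlapped Ier2, and in NCAM-enriched library 1 Jun (342) was below Egr1 (578), Ier2 (424) and Junb (418).

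In the Jun family, the shares of Jun and of Junb did not overlap between the groups. Both are parts of 1 sum, so their shifts are not 2 separate results. As a share of the summed Jun family level per exonic kilobase, Jun had 32.2%, 58.1% and 55.1% in NCAM-enriched libraries 1, 2 and 3 and 20.2%, 27.4% and 25.5% in bulk skin libraries 1, 2 and 3. Junb had 39.3%, 15.2% and 31.3% in the NCAM-enriched libraries and 56.9%, 54.6% and 55.4% in bulk skin. Junb was the largest of the 3 in every bulk skin library, whereas in the NCAM-enriched group Jun was the largest in libraries 2 and 3 and Junb in library 1. The mean share of Jun was 48.4 ± 14.2% against 24.4 ± 3.75% (SD, n = 3; exact permutation p = 0.1, the smallest possible) and that of Junb 28.6 ± 12.3% against 55.6 ± 1.14% (exact permutation p = 0.1). Neither reaches 0.05, which this design cannot give. A share of this kind does not depend on how the libraries were scaled. For the same shares taken of raw counts, the 95% Wilson interval for counting error reached at most 1.52 percentage points to either side.

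Jund had 28.6%, 26.8% and 13.6% of the Jun family in the NCAM-enriched libraries and 23.0%, 18.0% and 19.1% in bulk skin (exact permutation p = 0.6). Because of the exons that Jund shares with Gm11175, the shares were also taken per kilobase of exon shared with no other gene, which ascribes all counts to the unshared part. Jun then had 25.2%, 46.2% and 48.7% against 16.5%, 23.3% and 21.6%, and Junb 30.9%, 12.1% and 27.7% against 46.7%, 46.7% and 46.9%. The groups stayed apart for both. Jund had on this scale 43.8%, 41.7% and 23.5% against 36.8%, 30.0% and 31.5%, and was then the largest of the 3 in NCAM-enriched library 1.

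The Fos family was made up almost wholly of Fos, with 91.3%, 90.1% and 90.0% of its summed level per exonic kilobase in NCAM-enriched libraries 1, 2 and 3 and 93.1%, 92.6% and 89.3% in bulk skin libraries 1, 2 and 3 (exact permutation p = 0.4). Fosb had 7.29%, 9.19% and 9.08% against 5.53%, 6.25% and 8.90% (exact permutation p = 0.2). Fosl2 had 0.796%, 0.499% and 0.720% against 1.14%, 0.927% and 1.57%, with no overlap between the groups (exact permutation p = 0.1, the smallest possible). Fosl1 had 0.175 to 0.603% over the 6 libraries (exact permutation p = 0.7). Fos and Fosb came first and second in each of the 6 libraries, as the stacked shares show. Fosl2 was above Fosl1 in all 6 on this scale, but per kilobase of unshared exon Fosl1 (1.4%) was above Fosl2 (0.789%) in NCAM-enriched library 1.

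**Figure D3:**
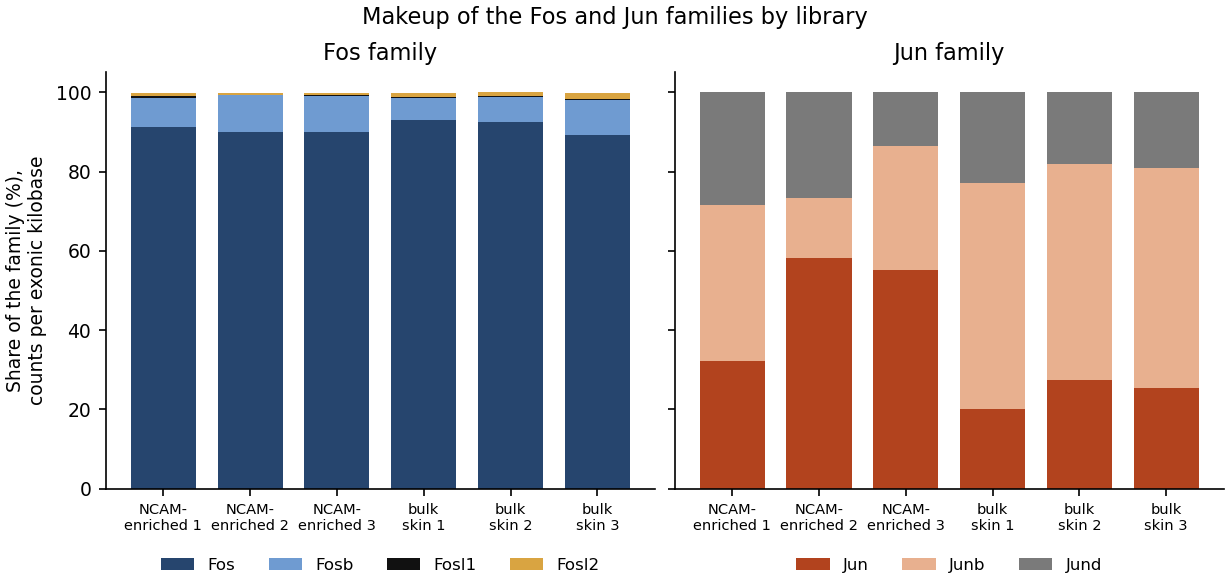
Share of each gene in the summed level of its family, in percent of counts per exonic kilobase, as 1 stacked bar per library. The left panel holds the Fos family and the right panel the Jun family. Fos takes 89.3 to 93.1% of its family in all 6 libraries, while Junb takes 54.6 to 56.9% of the Jun family in bulk skin and 15.2 to 39.3% in the NCAM-enriched libraries.

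Around the 10 genes, the other immediate early genes gave 1 call. Of 45 tested, 0 were called higher by edgeR and 1 lower, Gadd45b, a stress sensor that acts on MAP kinase signalling. Before adjustment 6 of the 45 had a p under 0.05, beside 18.9% of all genes tested. By DESeq2 1 was higher and 2 were lower, as by limma-voom. The median log2 fold change was -0.44, with 18 of 45 above 0, beside -0.07 over all genes tested. Gadd45b had 101, 72.6 and 114 CPM in NCAM-enriched libraries 1, 2 and 3 and 358, 274 and 296 CPM in bulk skin libraries 1, 2 and 3, and fell by 1.69 ± 0.35 on the log2 scale (SE; edgeR adjusted p = 0.0463). Nfkbia, an inhibitor of NF-kappa-B, had 716, 415 and 1479 CPM against 1957, 2193 and 1531 CPM (adjusted p = 0.295). Zfp36, which speeds the decay of immediate early and cytokine messages, had 952, 741 and 1191 CPM against 1469.8, 2137 and 1590.4 CPM (adjusted p = 0.303). All 3 genes had every NCAM-enriched library below every bulk skin library, as had 13 of the 45 and 19.3% of all genes tested. The reverse held for 2 of the 45 and 11.1% of all genes tested. The part of the immune cells, whose markers were lower in the same libraries, was not tested.

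Of 13 tested leucine zipper factors of the AP-1 type beyond the Fos and Jun families, 1 was called by edgeR. Over all genes tested edgeR called 2.59%. Before adjustment 4 of the 13 had a p under 0.05, beside 18.9% of all genes tested. Without overlap 4 of the 13 were higher and 1 lower, beside 11.1% and 19.3%. Nfe2l1, a CNC factor that pairs with small Maf proteins and controls proteasome genes, had 387, 378 and 266 CPM in NCAM-enriched libraries 1, 2 and 3 and 101, 103 and 87.7 CPM in bulk skin libraries 1, 2 and 3. It rose by 1.82 ± 0.34 (log2, SE; adjusted p = 0.0338). The most abundant of those not called were Atf4, a factor of the integrated stress response, with 182 to 502 CPM against 198 to 250.2 CPM (adjusted p = 0.577), and Nfe2l2 (Nrf2), the factor of the oxidative stress response, with 92.5 to 194 CPM against 121 to 176 CPM (adjusted p = 0.947). DESeq2 gave 2 as higher and 1 as lower, and limma-voom 1 each way. Batf, a factor of lymphocytes and dendritic cells, was the one lower in both, with no count in any NCAM-enriched library and 61, 57 and 51 counts in bulk skin libraries 1, 2 and 3 (adjusted p = 0.0580 in edgeR, 0.000291 in DESeq2 and 0.00708 in limma-voom). T cell and myeloid markers were lower in the same libraries, and their part in the value of Batf was not tested. The list had a median log2 fold change of 0.03.

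Of 25 kinases and factors upstream of Fos and Jun, 0 were called by edgeR, 4 had a p under 0.05 before adjustment (18.9% over all genes tested), and 2 were higher by DESeq2 and 1 by limma-voom. The 2 with the smallest p were the kinases that activate JNK, the kinase of the Jun protein. Map2k4 had 224, 270.4 and 195 CPM in NCAM-enriched libraries 1, 2 and 3 and 67.4, 106 and 78.4 CPM in bulk skin libraries 1, 2 and 3 (log2 fold change 1.45 ± 0.36 SE; edgeR adjusted p = 0.0690, DESeq2 0.00625). Map2k7 had 116, 138 and 96.2 CPM against 41.0, 58.6 and 53.5 CPM (1.19 ± 0.39; edgeR adjusted p = 0.137, DESeq2 0.0484). Both were among 4 of the 25 that were higher in every NCAM-enriched library than in any bulk skin library, beside 11.1% of all genes tested. Another 3 of the 25 were lower without overlap, beside 19.3%. The JNK genes had overlapping groups. Mapk8 had 20.7, 172 and 36.6 CPM against 32.0, 41.1 and 57.0 CPM (edgeR adjusted p = 0.635). Mapk9 had 2.13, 62.6 and 7.66 CPM against 15.2, 36.5 and 26.6 CPM (edgeR adjusted p = 0.968). A link of these kinases to the level of Jun was not tested. The ERK kinase Mapk3 had 678, 202 and 520.1 CPM against 245, 192 and 195 CPM, and Map2k3, which activates p38, had 59.5 to 211 CPM against 115 to 165 CPM, both with overlapping groups.

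Among 20 phosphatases and other brakes on the MAP kinase and AP-1 response, 0 were called by edgeR and 7 had an unadjusted p under 0.05, beside 18.9% of all genes tested. DESeq2 and limma-voom each called 1 lower. Their median log2 fold change was -0.47, with 7 of 20 above 0. Without overlap 7 of the 20 were lower and 3 higher, beside 19.3% and 11.1% of all genes tested. Dusp6, the ERK phosphatase, had 12.8, 6.95 and 23.0 CPM in NCAM-enriched libraries 1, 2 and 3 and 88.5, 77.8 and 97.3 CPM in bulk skin libraries 1, 2 and 3 (log2 fold change -2.60 ± 0.58 SE; edgeR adjusted p = 0.0527, DESeq2 0.000373). Fbxw7, a subunit of the ubiquitin ligase that degrades Jun, had 91.9, 168 and 68.4 CPM against 50, 54.5 and 35.6 CPM (edgeR adjusted p = 0.203). Dusp1, an immediate early phosphatase of p38 and JNK, was the most abundant of the list, at 1272, 1013 and 2031 CPM against 1783, 2675 and 1812 CPM (adjusted p = 0.586), and Dusp7 had 81.2 to 192 CPM against 60.9 to 119 CPM (adjusted p = 0.419).

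Genes of keratinocytes whose control has been linked to AP-1 went both ways. Of 15 tested, 1 was called higher and 1 lower by edgeR, beside 2.59% of all genes tested called in either direction. Before adjustment 4 of the 15 had a p under 0.05, beside 18.9%. DESeq2 called 2 higher, beside 5.06% of all genes, and 1 lower. By limma-voom 1 was called each way, beside 2.67% of all genes called higher. Without overlap 1 of the 15 was higher and 1 lower, beside 11.1% and 19.3% of all genes tested. The median log2 fold change was 0.77. Ivl, a cornified envelope protein, had 526, 97.4 and 375 CPM in NCAM-enriched libraries 1, 2 and 3 and 11.2, 33.5 and 31.0 CPM in bulk skin libraries 1, 2 and 3 (log2 fold change 3.72 ± 0.70 SE; adjusted p = 0.0338). Ivl and Lor are also on the list of suprabasal keratinocyte markers. Lor, another envelope protein, had 1327, 2.32 and 747 CPM against 8.07, 3.89 and 10.1 CPM (adjusted p = 0.0670 in edgeR, 0.371 in limma-voom and 3.04e-06 in DESeq2, which called it), so NCAM-enriched library 2 lay below bulk skin. Sprr1a, of the same envelope, had 409, 263 and 1338 CPM against 136, 176 and 326 CPM (adjusted p = 0.207). Mmp9, a matrix protease, had 626 counts in bulk skin and none in any NCAM-enriched library (edgeR adjusted p = 0.0178). Set against 3 counts summed over the group, the limit that a count of 0 allows, this is at least 122-fold lower. It is at least 57.7-fold lower when NCAM-enriched library 3 is left out. Langerhans and myeloid markers were lower in the same libraries, and their part in the value of Mmp9 was not tested.

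The calls of Nfe2l1, Gadd45b and Ivl did not hold without NCAM-enriched library 1 (adjusted p of 0.0722, 0.0946 and 0.0691) or without any single bulk skin library, where the adjusted p ran from 0.201 to 0.238 for Nfe2l1, from 0.199 to 0.270 for Gadd45b and from 0.177 to 0.224 for Ivl. The call of Mmp9 was lost without any single bulk skin library (0.115 to 0.171). With the replicate number as a block all 4 calls were lost, with an edgeR adjusted p from 0.0614 to 0.105. The plot of the pathway lists shows where the 10 genes lie among them.

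**Figure D4:**
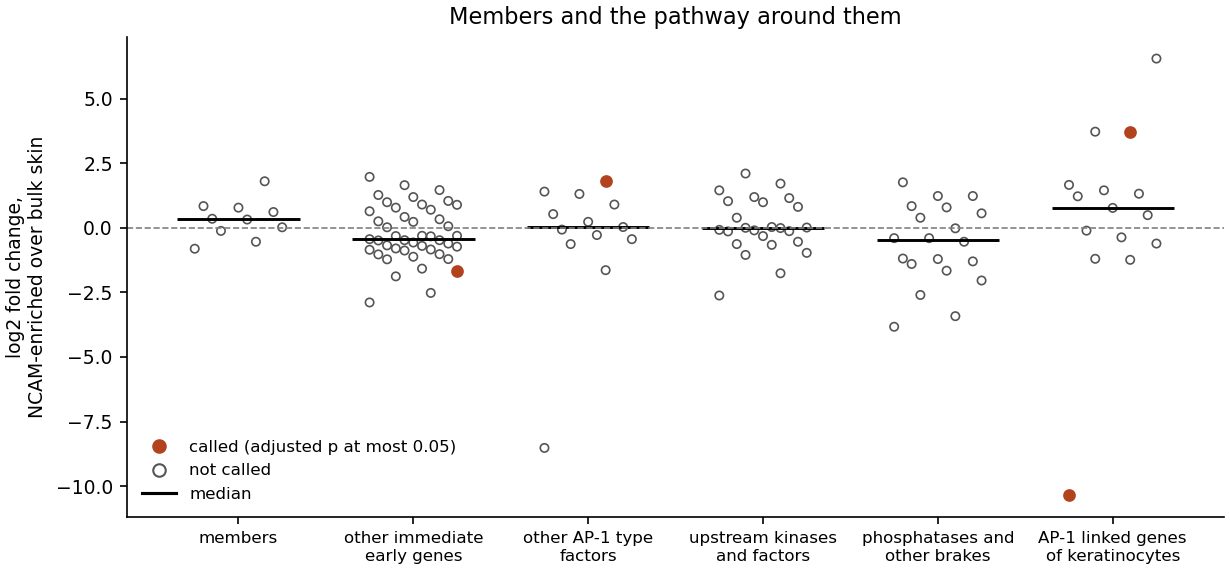
Log2 fold change, NCAM-enriched over bulk skin, of the 10 genes (members) and of the tested genes of 5 lists around them, 1 point per gene, with the list median as a bar. Filled points are called by edgeR (adjusted p of 0.05 or less). Batf, among the leucine zipper factors, and Mmp9 have no count in any NCAM-enriched library, so the depth of their points depends on the small count added in the fit. The 10 genes span -0.81 to 1.80 and hold no filled point.

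Heat shock proteins, another response raised by handling of cells, had 0 of 14 genes called by edgeR (5 had p under 0.05 before adjustment, beside 18.9% over all genes tested), while DESeq2 gave 3 genes as higher and 1 as lower and limma-voom 2 higher. The list split in direction, with 7 of 14 above 0 and a median log2 fold change of 0.21. Without overlap 4 of the 14 were higher and 3 lower, beside 11.1% and 19.3% of all genes tested. Hspa1a, the inducible Hsp70, had 226, 435 and 479.8 CPM in NCAM-enriched libraries 1, 2 and 3 and 86.9, 121 and 131 CPM in bulk skin libraries 1, 2 and 3 (edgeR adjusted p = 0.0608).

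The genes whose pattern over the 6 libraries came closest to that of the 10 genes were not immediate early genes. By the root mean square difference of log2 CPM, each centred on its own mean over the 6 libraries, the nearest to the mean of the 10 genes were Smarcb1 (0.13), Irak1 (0.14), Nup214 (0.14), Mia2 (0.14) and Map4 (0.14). Nearest to Fos were Npm3 (0.09), Traf5 (0.10), Tmem126b (0.12), Plbd2 (0.12) and Fam168a (0.12). Npm3 had 6.91, 10 and 12.5 CPM in NCAM-enriched libraries 1, 2 and 3 and 9.0, 11.9 and 10.1 CPM in bulk skin libraries 1, 2 and 3, the same order of libraries within each group as Fos. The likeness is a description over 6 libraries, and all of these genes have small differences between the groups.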

How the data were processed

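RNA of 6 libraries was measured by Smart-seq2, and the deposited values are raw counts per gene. Per the methods and the labels, the authors trimmed reads (bbduk) and removed abundant sequences (bbmap), then aligned the rest with STAR (GRCm38) and made the counts with featureCounts. Which annotation release and strand setting were used is not given in the sources used here. Exonic lengths (union of exons), positions and overlaps were taken from GENCODE M21, where 54495 of 54532 gene IDs were found, and start regions from RefSeq.

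Groups came from the labels. The test was the quasi-likelihood F-test of edgeR 4.0.16 (R 4.3.3, filterByExpr, TMM), Benjamini-Hochberg adjusted over 13157 genes, and a gene was called when its adjusted p was 0.05 or less. SE was derived from the F statistic as the log2 fold change over the root of F. The common biological coefficient of variation came to 0.744. CPM are counts over the TMM-scaled size of the filtered library, so 1 count was 0.216 to 0.773 CPM. Since PCR reads without molecular identifiers are not independent molecules, intervals (95%, Wilson for shares of raw counts) and floors (3 counts) cover counting error only. Shares were set against each other by exact permutation, two-sided. The fit was tested on simulated data.

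The 10 genes and all lists were chosen with earlier results of these data known. Named beside the 10 genes are, from each list, its called genes or otherwise the 2 with the smallest p, the 2 most abundant per kilobase that were not called, and the 5 genes nearest in pattern. For heat shock proteins the text gives 1 of them. Batf, Mapk8 and Mapk9 were named after their values were seen. Alternatives were DESeq2 1.42.0, limma-voom 3.58.1, other scaling factors, all genes with at least 1 count, a robust fit, a block for the replicate number and leaving out each library. Added after seeing the data were shares per unshared exon and DESeq2 leaving out each library for Jun. Figures used matplotlib 3.10.9 in Python 3.11.15.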

Additional observations from a re-analysis of the deposited data

How the results depend on the processing

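With 3 libraries a group, exact permutation tests cannot go below 0.1, and leaving out a library changed the counts over all genes widely. Of the 10 genes 0 were called higher by edgeR (2 at an unadjusted p under 0.05), against 1, Jun, by DESeq2, by limma-voom and by edgeR on every gene that had 1 count or more. In edgeR 0 were called with any library left out, and 0 to 3 then had an unadjusted p under 0.05. Over all genes, 137 higher and 204 lower became 769 and 741 on every gene with 1 count or more, 661 and 928 with DESeq2, and 351 and 849 with limma-voom. Without single libraries 0 to 1099 genes were higher and 13 to 733 lower, with the 0 without bulk skin library 1 or 2, where 2115 and 2237 genes had an unadjusted p under 0.05. Calls among other immediate early genes went from 1 to 3 on every gene with 1 count or more, 3 with DESeq2 and 3 with limma-voom, and ran from 0 to 5 without single libraries. The cause was not tested.

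The log2 fold change of Fos, 0.02, was -0.08 with upper quartile factors, -0.07 with library totals, -0.07 on every gene with 1 count or more and -0.01 with limma-voom, and ran from -0.29 to 0.17 without single libraries. These ranges were -0.02 to 0.58 for Fosb, -0.76 to 0.27 for Junb, -0.10 to 0.57 for Ier2 and, for the difference in the share of Fosl1, -0.0113 to 0.200 percentage points. Over all genes tested the median was -0.07, and it was -0.37 with limma-voom, against which the values of that fit can be read.

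The deviations of same-numbered libraries from their group means correlated at 0.0226, 0.00025 and -0.00436. The sources do not say what the replicate numbers stand for. With 3 libraries a group, these values cannot settle whether same-numbered libraries are paired. Under the replicate block, which fits the replicate number as a term, the calls over all genes were 50 higher and 92 lower, those among other immediate early genes 0, those among the 10 genes 0, and the log2 fold change of Fos was -0.01, with a median of -0.36 over all genes.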
